A study of Homo sapiens with 8 samples.

Results

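The 10 genes ATF4, DDIT3, TRIB3, ASNS, CHAC1, PPP1R15A, PSAT1, PHGDH, SLC7A11 and HSPA5, which belong to the integrated stress response and to serine synthesis, were followed in every library of an RNA-seq experiment. They were chosen by symbol and matched to Ensembl identifiers through GENCODE release 29, and all 10 were found among the 58735 genes with a value. The cells were U2OS, an established human osteosarcoma line, carrying either a control short hairpin RNA (control cells) or a hairpin against WSB2 (KD cells). WSB2 is a substrate-recognizing subunit of a Cullin-RING ubiquitin ligase. Each kind of cell was left unstimulated or was stimulated with TNF-α for 5 h, which gave 4 groups of 2 libraries, 8 in all. By the study's methods the hairpins were delivered by lentivirus in the pLKO.1 vector and the infected cells were selected with puromycin. The WSB2 hairpin used, the concentration of TNF-α and whether the lines were pools or clones are not given in the sources used here. Nothing in the labels says that the 2 libraries of a group came from separate cultures, so the p-values below measure only the spread between these libraries, which may be technical.

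The integrated stress response is a shared answer to amino acid shortage, misfolded protein in the endoplasmic reticulum (ER), viral RNA and lack of heme. Each of these activates a kinase that phosphorylates the translation factor eIF2, which lowers protein synthesis in general while the mRNA of the transcription factor ATF4 is translated better. ATF4 then switches on genes for amino acid synthesis and uptake and for glutathione handling, together with DDIT3 (CHOP) and with genes that bring the response to an end. PHGDH and PSAT1 catalyze the first steps of serine synthesis from a glycolytic intermediate and are among the ATF4 targets, whereas HSPA5 (BiP) is the main chaperone of the ER lumen and marks the unfolded protein response more than the ATF4 branch.

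Each library held between 15601098 and 18677023 reads assigned to genes. The values are FPKM, fragments per kilobase of exon, scaled by median-of-ratios library factors and not by the total of reads. The library size used was 1.21 times the assigned reads in both unstimulated KD libraries and 0.925 to 1.03 times in the others. The values can be compared between genes, while their comparison between libraries depends on this scaling. Their counting precision was high for HSPA5 (238775 reads over the 8 libraries), ATF4 (67270) and PHGDH (50908), and lower for CHAC1 (4220), DDIT3 (1089) and ASNS (349). Per length, HSPA5 (422 to 481 FPKM) and ATF4 (122 to 237 FPKM) were the most abundant of the 10 mRNAs, and ASNS (0.393 to 0.930 FPKM) was the least abundant.

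The ASNS value needs a caution. On GRCh38, ASNS lies at chr7:97852118-97872542 on the minus strand, and 44.6% of its exon bases and 96.1% of its coding bases are also annotated as exons of AC079781.5, a processed transcript on the same strand that was given 8 reads. How reads lying in exons of both genes were counted is not given in the sources used here. If they were left out of both, the ASNS level is understated and its comparison with other genes does not hold, and this could not be checked from the FPKM values. A pseudogene copy of it, ASNSP1, was given 142 reads. DDIT3 (chr12:57516588-57521737, minus strand) shares 39.6% of its exon bases with other genes when strand is ignored, among them MARS and MBD6 on the opposite strand, and whether the counting used strand is not stated. SLC7A11 (chr4:138164097-138242349, minus strand) shares 8.97% with its antisense gene SLC7A11-AS1, to which 59 reads were assigned. The other 7 genes share no exon bases with another gene.

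RefSeq promoter windows of build GRCh38.p14, which run from 250 bases before to 50 bases after a transcription start, were present for 9 of the 10 genes, between 1 and 3 windows a gene and 14 in all. SLC7A11 had none. The windows were searched on both strands for 3 motifs. TGATGNAA is the core of the C/EBP-ATF response element bound by ATF4 with its partners. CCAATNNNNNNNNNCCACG is the ER stress element read by the unfolded protein response. TGACGTCA is the cyclic AMP response element. Of 35116 windows of all genes, 3.62% held the first motif, 0.0769% the second and 1.85% the third. Among the windows of the 10 genes, ASNS and CHAC1 held the first motif, HSPA5 the second and PPP1R15A the third, and the windows of ATF4, DDIT3, TRIB3, PSAT1 and PHGDH held none of these letters. The 4 windows with a match are printed because they show which member carries which element, each with the 250 bases before the start, read 5′ to 3′ on the strand of the gene, with the match in capitals. A match is a description of the sequence, not a site shown to be used.
ASNS, chr7:97872409-97872658, minus strand, sense match from position -68: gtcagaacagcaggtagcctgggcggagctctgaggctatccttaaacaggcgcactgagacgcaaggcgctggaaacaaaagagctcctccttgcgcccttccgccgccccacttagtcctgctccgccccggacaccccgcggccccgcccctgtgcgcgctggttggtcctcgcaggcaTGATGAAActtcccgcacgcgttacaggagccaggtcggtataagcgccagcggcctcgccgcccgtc
CHAC1, chr15:40953221-40953470, plus strand, antisense match from position -209: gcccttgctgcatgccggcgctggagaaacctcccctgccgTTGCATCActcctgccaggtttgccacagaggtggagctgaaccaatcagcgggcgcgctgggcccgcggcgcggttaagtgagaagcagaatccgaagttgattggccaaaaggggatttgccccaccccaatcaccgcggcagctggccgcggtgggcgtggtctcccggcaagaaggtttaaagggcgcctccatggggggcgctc
PPP1R15A, chr19:48872171-48872420, plus strand, palindromic match from position -58: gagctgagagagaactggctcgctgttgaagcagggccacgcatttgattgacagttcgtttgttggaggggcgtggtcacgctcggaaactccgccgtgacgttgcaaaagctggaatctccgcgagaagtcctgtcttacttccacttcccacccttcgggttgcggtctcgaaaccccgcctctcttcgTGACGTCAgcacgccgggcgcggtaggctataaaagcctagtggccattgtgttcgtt
HSPA5, chr9:125241344-125241593, minus strand, sense match from position -66: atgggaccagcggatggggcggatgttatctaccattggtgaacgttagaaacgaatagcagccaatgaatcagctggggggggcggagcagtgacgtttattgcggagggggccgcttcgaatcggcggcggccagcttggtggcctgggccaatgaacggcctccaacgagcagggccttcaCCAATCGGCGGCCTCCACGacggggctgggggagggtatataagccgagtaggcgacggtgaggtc

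The knockdown was read first. WSB2 stood at 27.7 and 28.0 FPKM in unstimulated control cells, at 8.38 and 8.52 FPKM in unstimulated KD cells, at 24.995 and 25.3 FPKM in control cells with TNF-α and at 9.002 and 9.18 FPKM in KD cells with TNF-α. The KD libraries were therefore low in both conditions without overlap with the controls, with log2 fold changes of -1.61 (SE 0.07, adjusted p = 0.000119) and -1.37 (SE 0.07, adjusted p = 0.00113) by limma. The second call was lost without KD_TNF replicate 2 (adjusted p = 0.0519). These and all later fold changes are on the scale of log2(FPKM + 1), which understates the change of genes with low values, and the p-values are adjusted by Benjamini-Hochberg over the 16528 genes with enough reads, which include all 10. The labelled cell type was checked against mesenchymal and osteoblast markers. VIM (146 to 240 FPKM), COL1A1 (172 to 269 FPKM) and SPARC (216 to 293 FPKM) were abundant, RUNX2 was at 1.29 to 2.94 FPKM, COL1A2 did not exceed 0.0934 FPKM, and TWIST1 was listed at 0. The 8 markers summed to 539 and 554 FPKM in unstimulated KD cells and to 683 to 777 FPKM elsewhere. Of 4 epithelial markers, KRT8 was at 126 to 362 FPKM, lowest in unstimulated KD cells, while EPCAM, CDH1 and KRT19 did not exceed 0.482 FPKM. Markers of hepatocytes, leukocytes and endothelial cells summed to at most 1.66, 0.302 and 0.445 FPKM. The part of these shifts in the results was not tested.

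The 2 libraries of unstimulated KD cells stood apart from the other 6 in more than WSB2. Mitochondrial genes took 4.10% and 4.42% of their reads, against 1.11% to 2.03% elsewhere. Averaged over reads, the GC content of the genes to which they were assigned was 50.6% and 50.1% there and 53.2% to 53.8% in the others, and a read was found for 26225 and 26397 genes, against 22072 to 22957. Across genes, the change between KD and control cells without TNF-α followed the GC content of the exons (Spearman's rho = -0.70 over 16520 genes, which share these libraries), while with TNF-α it did not (0.04). Because both libraries of that group and no other library carry this difference, the effect of the knockdown without TNF-α cannot be told apart from it. For the 10 genes this difference is therefore given also after a correction for GC content and exon length, and beside the median change of genes whose GC content lies within 1 percentage point. For the wider pathway the corrected counts and values are given.

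**Figure D1:**
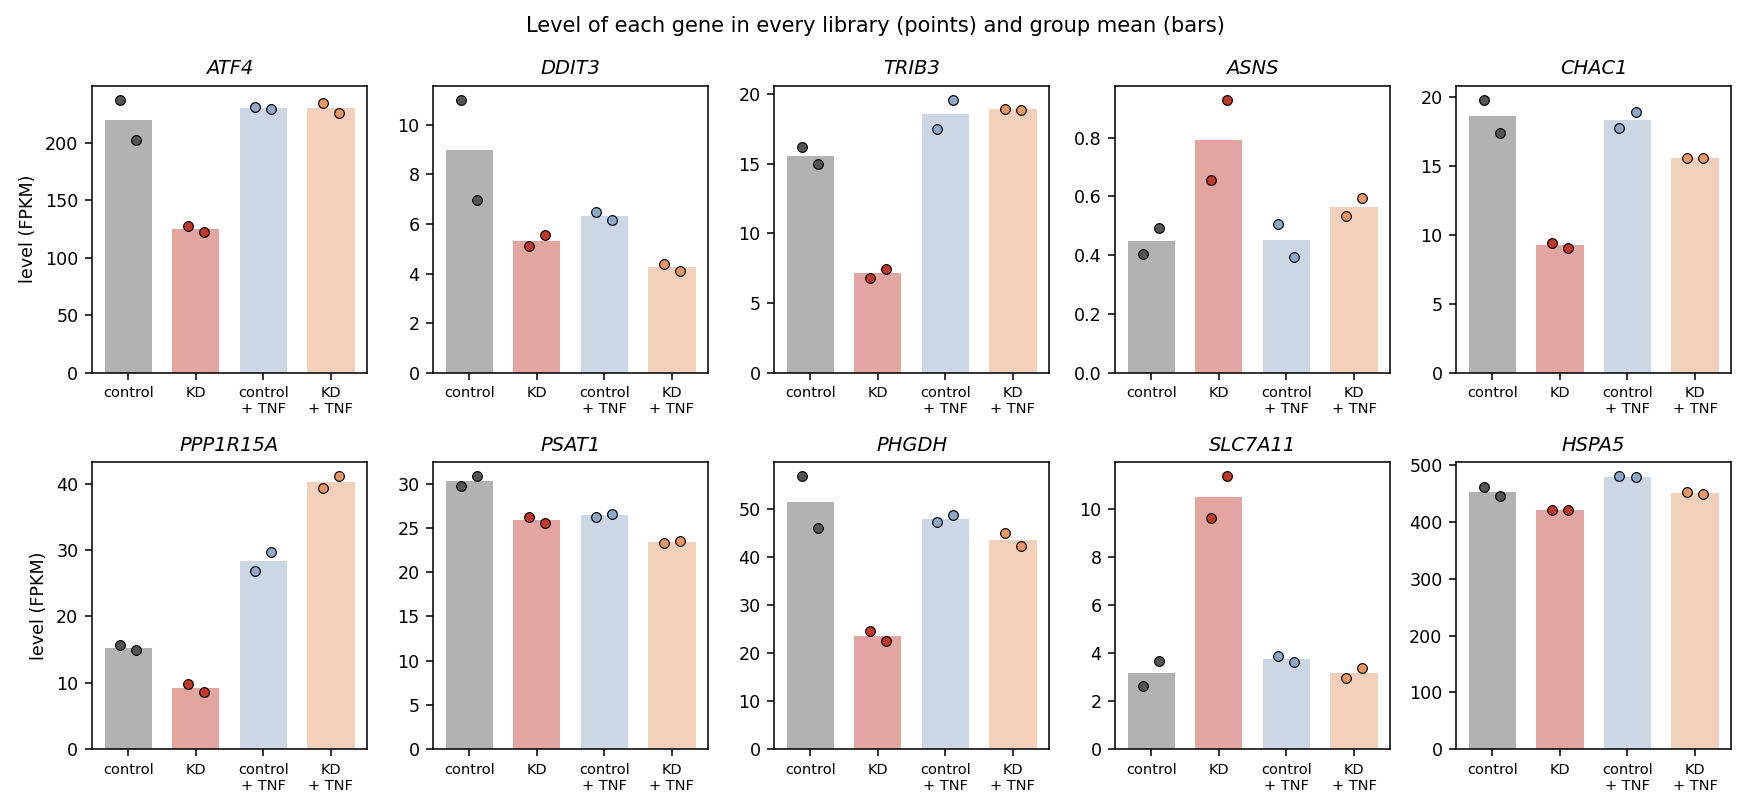
Level of the 10 genes in FPKM (vertical axes, each from 0) in the 8 libraries, with a point for each library and a bar for the mean of the 2 libraries of a group. ATF4, TRIB3, CHAC1 and PHGDH were lowest and SLC7A11 was highest in unstimulated KD cells, and PPP1R15A was highest in KD cells with TNF-α, at 39.3 and 41.1 FPKM.

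ATF4, the central transcription factor of the response (chr22:39519695-39522685, plus strand), was at 237 and 203 FPKM in unstimulated control cells and at 128 and 122 FPKM in unstimulated KD cells. With TNF-α it was at 231 and 229 FPKM in control cells and at 234 and 225 FPKM in KD cells. Only the unstimulated KD libraries were low, and the other 6 overlapped each other. The mean of unstimulated KD cells was 0.567 of the control mean, a log2 fold change of -0.81 (SE 0.10, adjusted p = 0.000438). The 1072 genes of like GC content (ATF4 exons have 55.3% GC) changed by a median of -0.29, and after the correction ATF4 differed by -0.37 (adjusted p = 0.0030). With TNF-α, KD and control cells differed by -0.0020 (SE 0.10, adjusted p = 1.00), and TNF-α changed the control cells by 0.07 (SE 0.10, adjusted p = 0.794). ATF4 is regulated mostly at the level of translation, which these data do not measure. In bulk RNA, fewer cells with a transcript and less of it in each cell cannot be told apart. A pseudogene copy, ATF4P3, was assigned 183 reads.

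DDIT3 encodes CHOP, a bZIP factor that ATF4 induces and that promotes cell death under lasting stress. It was at 11.0 and 6.98 FPKM in unstimulated control cells, the widest disagreement between 2 libraries of a group among the 10 genes (1.58-fold). It was at 5.10 and 5.55 FPKM in unstimulated KD cells, at 6.49 and 6.15 FPKM in control cells with TNF-α and at 4.38 and 4.11 FPKM in KD cells with TNF-α. The groups did not overlap and control cells were above KD cells in both conditions, but the gap between the unstimulated control mean and the next group was smaller than the SD of the former. Without TNF-α the KD cells were lower by a log2 fold change of -0.63 (SE 0.18, adjusted p = 0.015), and by -0.41 (adjusted p = 0.0475) after the correction. The 1205 genes of like GC content (50.3%) changed by a median of -0.04. With TNF-α the difference was of like size, -0.48 (SE 0.18), and did not pass the threshold (adjusted p = 0.513). The call without TNF-α was lost with no filter on low reads (adjusted p = 0.0528), with scaling to total reads (-0.39, adjusted p = 0.0626) and without KD_unstimulated replicate 1 (-0.58, adjusted p = 0.0743). Its size moved with the control libraries used, to -0.34 (adjusted p = 0.0241) without control_unstimulated replicate 1 and -0.93 (adjusted p = 0.000237) without replicate 2.

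TRIB3 encodes a pseudokinase that ATF4 and CHOP induce and that dampens their activity (chr20:362835-397559, plus strand). It stood at 16.2 and 14.9 FPKM in unstimulated control cells, 6.79 and 7.45 FPKM in unstimulated KD cells, 17.5 and 19.6 FPKM in control cells with TNF-α, and 18.9 and 18.9 FPKM in KD cells with TNF-α. The unstimulated KD libraries were the low ones and the TNF-α groups overlapped. TRIB3 was lower in unstimulated KD cells by -1.03 (SE 0.09, adjusted p = 0.000159), with a median of -0.56 among 881 genes of like GC content and -0.42 (adjusted p = 0.00582) after the correction. TNF-α changed it in control cells by 0.24 (SE 0.09, adjusted p = 0.227), and KD and control cells with TNF-α differed by 0.03 (SE 0.09, adjusted p = 0.987).

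CHAC1, a glutathione-degrading enzyme and a sensitive ATF4 target (chr15:40952962-40956519, plus strand), carries the C/EBP-ATF motif printed above. Its levels were 19.8 and 17.4 FPKM in unstimulated control cells and 9.44 and 9.04 FPKM in unstimulated KD cells. With TNF-α they were 17.8 and 18.9 FPKM in control cells and 15.6 and 15.6 FPKM in KD cells. Both KD groups lay below their controls without overlap, the unstimulated one further down. Without TNF-α the log2 fold change was -0.94 (SE 0.09, adjusted p = 0.000172). CHAC1 has the highest GC content of the 10 (62.6%), 766 genes of like content changed by a median of -0.58, and after the correction the difference was -0.28 (adjusted p = 0.00841). With TNF-α it was -0.22 (SE 0.09, adjusted p = 0.564).

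PPP1R15A was the member that TNF-α moved in control cells. It encodes GADD34, which brings a phosphatase to eIF2 and so ends the translational arrest (chr19:48872392-48876057, plus strand), and its promoter holds the cyclic AMP response element printed above. It stood at 15.7 and 14.9 FPKM in unstimulated control cells and at 26.8 and 29.8 FPKM with TNF-α. In KD cells it stood at 9.87 and 8.61 FPKM without and at 39.3 and 41.1 FPKM with TNF-α. No 2 groups overlapped, and each step in the order from unstimulated KD cells to KD cells with TNF-α was larger than the SD of either group. TNF-α raised it in control cells by 0.84 (SE 0.09, adjusted p = 0.00220), 1.85 times on the means, and in KD cells by 2.01 (SE 0.09, adjusted p = 1.28e-05), 4.35 times on the means. With TNF-α, KD cells were 1.42 times the control cells on the means, a log2 fold change of 0.49 (SE 0.09) with an unadjusted p of 0.000753 and an adjusted p of 0.135 over all genes. After the GC and length correction this difference was 0.495 with an adjusted p of 0.0413, and with the replicate block added to the correction the adjusted p was 0.0638. Without TNF-α the KD cells were lower by -0.67 (SE 0.09, adjusted p = 0.000571), beside a median of -0.42 among 1067 genes of like GC content (57.9%). This difference was not called after the correction (-0.15, adjusted p = 0.114).

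The 2 serine synthesis enzymes differed from each other. PHGDH, the first enzyme of the route (chr1:119648411-119744226, plus strand), was at 56.9 and 46.0 FPKM in unstimulated control cells, at 24.6 and 22.6 FPKM in unstimulated KD cells, at 47.3 and 48.8 FPKM in control cells with TNF-α and at 44.97 and 42.3 FPKM in KD cells with TNF-α. The unstimulated KD libraries were low and the other 6 lay between 42.3 and 56.9 FPKM. The log2 fold change of -1.09 (SE 0.11, adjusted p = 0.000212) was the lowest of the 10, genes of like GC content (1069 genes near 56.2%) had a median of -0.35, and -0.90 (adjusted p = 0.000931) was left after the correction. With TNF-α the difference was -0.14 (SE 0.11, adjusted p = 0.864).

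PSAT1, the aminotransferase that acts next (chr9:78297143-78330093, plus strand), was at 29.7 and 30.8 FPKM in unstimulated control cells, 26.2 and 25.5 FPKM in unstimulated KD cells, 26.3 and 26.6 FPKM in control cells with TNF-α and 23.3 and 23.5 FPKM in KD cells with TNF-α. Its groups did not overlap, and the whole range was narrow. Without TNF-α it was lower in KD cells by -0.22 (SE 0.07, adjusted p = 0.0234), and with TNF-α it differed by -0.17 (SE 0.07, adjusted p = 0.580). Its low GC content (43.7%) puts it among 1550 genes with a median of 0.27, so that the correction widened the unstimulated difference to -0.42 (adjusted p = 0.0017), whereas scaling to total reads turned it to 0.05 (adjusted p = 0.561). The call was lost with voom on the recovered reads (-0.19, adjusted p = 0.113), with only the libraries compared in the fit (adjusted p = 0.141), without KD_unstimulated replicate 1 (-0.24, adjusted p = 0.0649) or 2 (-0.20, adjusted p = 0.116), and without KD_TNF replicate 1 or 2 (adjusted p = 0.0603 and 0.0602). PSPH, which completes the route and was named after its values were seen, was at 9.95 and 9.31 FPKM in unstimulated control cells and at 6.74 and 7.24 FPKM in unstimulated KD cells, a fall of -0.41 (SE 0.08, adjusted p = 0.00359) that became -0.16 (adjusted p = 0.107) after the correction.

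ASNS, which makes asparagine, and SLC7A11, the cystine importer xCT that feeds glutathione synthesis, were the members that were higher in unstimulated KD cells. ASNS was at 0.404 and 0.493 FPKM in unstimulated control cells, 0.657 and 0.930 FPKM in unstimulated KD cells, 0.508 and 0.393 FPKM in control cells with TNF-α and 0.533 and 0.596 FPKM in KD cells with TNF-α. The unstimulated KD libraries were the highest, by a small margin, KD cells with TNF-α came next, and the control groups, which overlapped each other, lay below both. The mean of unstimulated KD cells was 1.77 times that of the controls. At these levels the added 1 FPKM compresses the log2 fold change to 0.30 (SE 0.09, adjusted p = 0.0237), and with 0.1 added it was 0.69 (adjusted p = 0.0382). With voom on the recovered reads it was 0.83 (adjusted p = 0.0291). On the scale with 1 FPKM added, the median for 1465 genes of like GC content was 0.23. ASNS was at 0.09 (adjusted p = 0.436) after the correction, which was fitted on that scale. The call was also lost with no filter on low reads (adjusted p = 0.111), with upper-quartile factors (0.21, adjusted p = 0.0774), with only the libraries compared in the fit (adjusted p = 0.0522), without control_unstimulated replicate 1 (0.26, adjusted p = 0.1005) and without KD_unstimulated replicate 2 (0.19, adjusted p = 0.151).

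SLC7A11 was at 2.63 and 3.68 FPKM in unstimulated control cells, 9.62 and 11.3 FPKM in unstimulated KD cells, 3.88 and 3.62 FPKM in control cells with TNF-α and 2.95 and 3.36 FPKM in KD cells with TNF-α. The unstimulated KD libraries were above all others and the remaining 3 groups lay within 1 range. The rise of 1.47 (SE 0.15, adjusted p = 0.000208), 3.32 times on the means, was the highest of the 10 in this comparison. SLC7A11 also has the lowest GC content (35.9%), where 264 genes had a median of 0.74, and a rise of 0.51 (adjusted p = 0.00406) was left after the correction. With TNF-α the KD cells differed from control cells by -0.19 (SE 0.15, adjusted p = 0.847).

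HSPA5 (chr9:125234853-125241330, minus strand), whose promoter holds the ER stress element, varied least relative to its level. It was at 462 and 445 FPKM in unstimulated control cells, 422 and 422 FPKM in unstimulated KD cells, 481 and 478 FPKM in control cells with TNF-α and 453 and 450 FPKM in KD cells with TNF-α. KD libraries lay below their controls in both conditions, and differences of -0.10 (SE 0.10, adjusted p = 0.413) without and -0.09 (SE 0.10, adjusted p = 0.941) with TNF-α did not pass the test. Scaling to total reads turned the first of these to 0.18 (adjusted p = 0.104), and the correction gave -0.17 (adjusted p = 0.0684). The 1357 genes of like GC content (46.0%) had a median of 0.15.

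**Figure D2:**
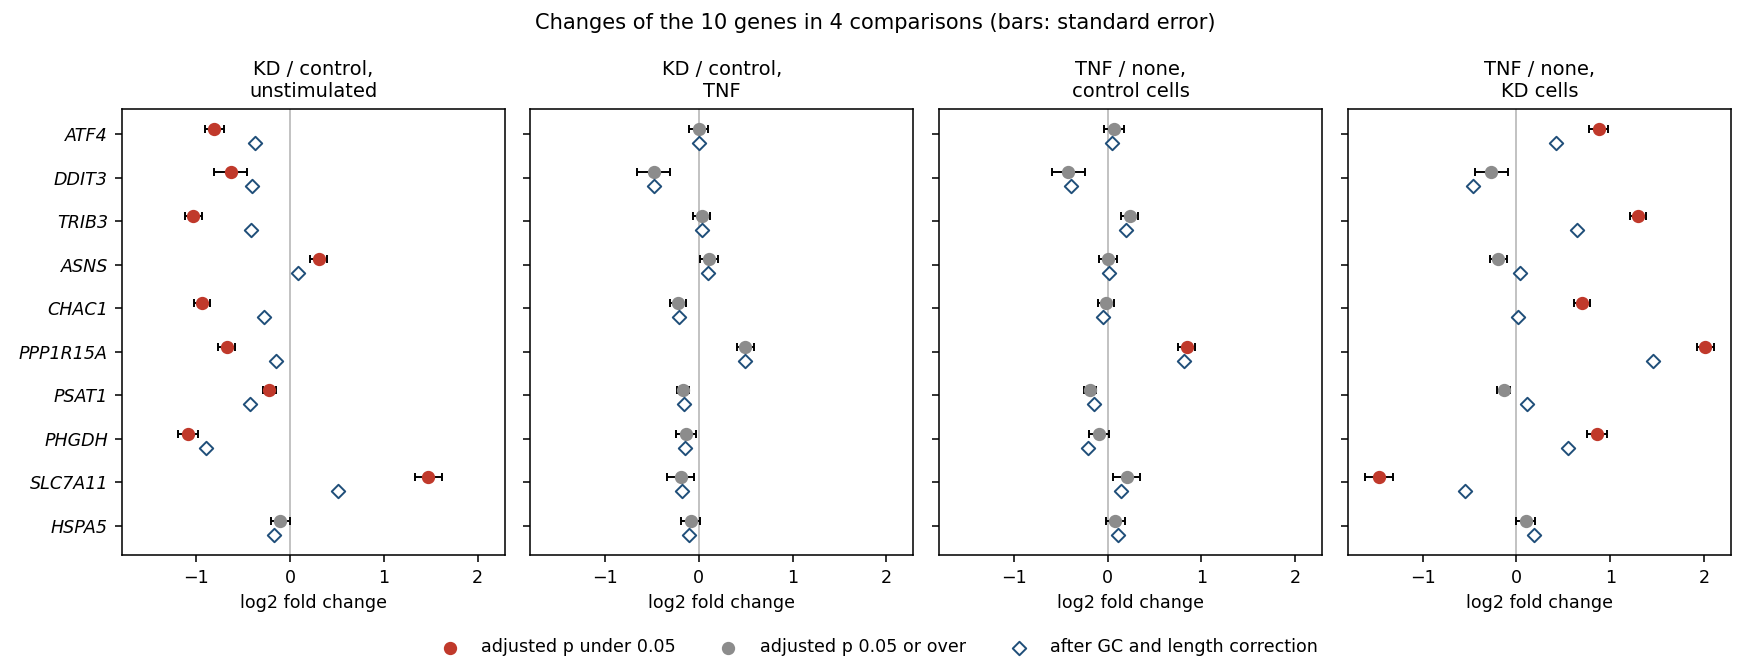
Log2 fold changes (horizontal axes) of the 10 genes in 4 comparisons, as filled circles with their standard errors, red where the adjusted p is under 0.05, and as open diamonds after the correction for GC content and exon length. The diamonds lie nearer to 0 than the circles for most genes where unstimulated KD cells are compared, and the 2 symbols lie close together where they are not. PPP1R15A lies to the right in both TNF-α comparisons, at 0.84 and 2.01.

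Without TNF-α, 2 of the 10 genes were called higher and 7 lower in KD cells, where 29.8% of the 16528 genes tested were called higher and 30.2% lower. The median log2 fold change was -0.65 over the 10 and -0.0010 over all genes tested. After the GC and length correction, 1 gene was called higher (SLC7A11) and 6 lower (ATF4, DDIT3, TRIB3, CHAC1, PSAT1 and PHGDH), with a median of -0.32, where 23.3% of the genes tested were called higher and 27.9% lower. The split depends on the scaling between libraries, because scaling to total reads moved the median of all genes to 0.13 and upper-quartile factors moved it to -0.12. Of the genes called, 49.7% were higher in the main comparison, 65.3% with scaling to total reads and 37.8% with upper-quartile factors, and the 10 genes then gave 2 higher with 5 lower and 1 higher with 7 lower. The shares of all genes tested were 39.4% higher and 20.9% lower with scaling to total reads, and 23.02% higher and 37.95% lower with upper-quartile factors.

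With TNF-α, none of the 10 genes was called by limma between KD and control cells, where 0.0605% of the genes tested were called higher and 0.0545% lower. An unadjusted p under 0.05 was found for 4 of them, PPP1R15A, DDIT3, CHAC1 and PSAT1, and for 8.16% of the genes tested. Limma with voom weights on the reads recovered from the FPKM values also called none. After the GC and length correction 1 was called higher, PPP1R15A, where 0.254% of the genes tested were called higher and 0.133% lower. The log2 fold changes lay between -0.48 for DDIT3 and 0.49 for PPP1R15A, and 8 of the 10 were smaller than 0.25 in size. ATF4 and TRIB3 overlapped between the groups, and how many of all genes tested overlapped was not counted.

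In control cells, TNF-α raised 1 of the 10 genes (PPP1R15A) and lowered none, where 3.1% of the genes tested were called higher and 1.14% lower. The share of higher calls among all calls was 73.0%, and 60.3% with scaling to total reads. After the correction PPP1R15A was again the 1 member called, where 3.77% of the genes tested were higher and 1.86% lower. An unadjusted p under 0.05 without a call was found for DDIT3 (-0.42, adjusted p = 0.269), TRIB3 (0.24, adjusted p = 0.227) and PSAT1 (-0.19, adjusted p = 0.198), and an unadjusted p under 0.05 for 17.5% of the genes tested. DDIT3 was called lower when control_unstimulated replicate 2 was left out (-0.72, adjusted p = 0.00689), the library in which it was lower, and was at -0.13 (adjusted p = 0.528) without replicate 1.

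In KD cells, TNF-α was followed by higher levels of 5 of the 10 genes and a lower level of 1, where 31.1% of the genes tested were called higher and 31.4% lower. The genes called higher were PPP1R15A (2.01), TRIB3 (1.295), ATF4 (0.88), PHGDH (0.86) and CHAC1 (0.70), and the gene called lower was SLC7A11 (-1.46). This comparison shares the unstimulated KD libraries with that of the knockdown without TNF-α, so the 2 sets of values are not independent. Across genes it followed GC content as strongly (Spearman's rho = 0.69 over 16520 genes). After the correction PPP1R15A (1.46), TRIB3 (0.64), PHGDH (0.55), ATF4 (0.42), SLC7A11 (-0.55) and DDIT3 (-0.47, adjusted p = 0.0273) were called, and CHAC1 was at 0.02 (adjusted p = 0.851), where 28.9% of the genes tested were called higher and 27.3% lower. Of all genes called, 49.8% were higher, 31.4% with scaling to total reads and 60.1% with upper-quartile factors. With scaling to total reads all 10 genes were called, 5 higher and 5 lower, as were 20.02% (higher) and 43.8% (lower) of the genes tested. Further calls appeared when a library was left out, for DDIT3 (-0.27, adjusted p = 0.0212 and 0.0198) and PSAT1 (-0.14, adjusted p = 0.0421 and 0.0426) without control_unstimulated replicate 1 or 2, and for ASNS (-0.30, adjusted p = 0.0393) without KD_unstimulated replicate 1.

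The difference of the knockdown effect with and without TNF-α was tested as an interaction. It was called higher for 5 of the 10 genes and lower for 1, where 23.8% of the genes tested were called higher and 22.3% lower, and the corrected fit called 4 higher and 1 lower, where 19.1% and 14.9% of the genes tested were called. Without control_unstimulated replicate 2, DDIT3 was called as well (0.45, adjusted p = 0.0204). With upper-quartile factors PSAT1 was also called (0.29, adjusted p = 0.0488). Of all genes called, 51.7% were higher, 32.9% with scaling to total reads and 64.9% with upper-quartile factors.

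**Figure D3:**
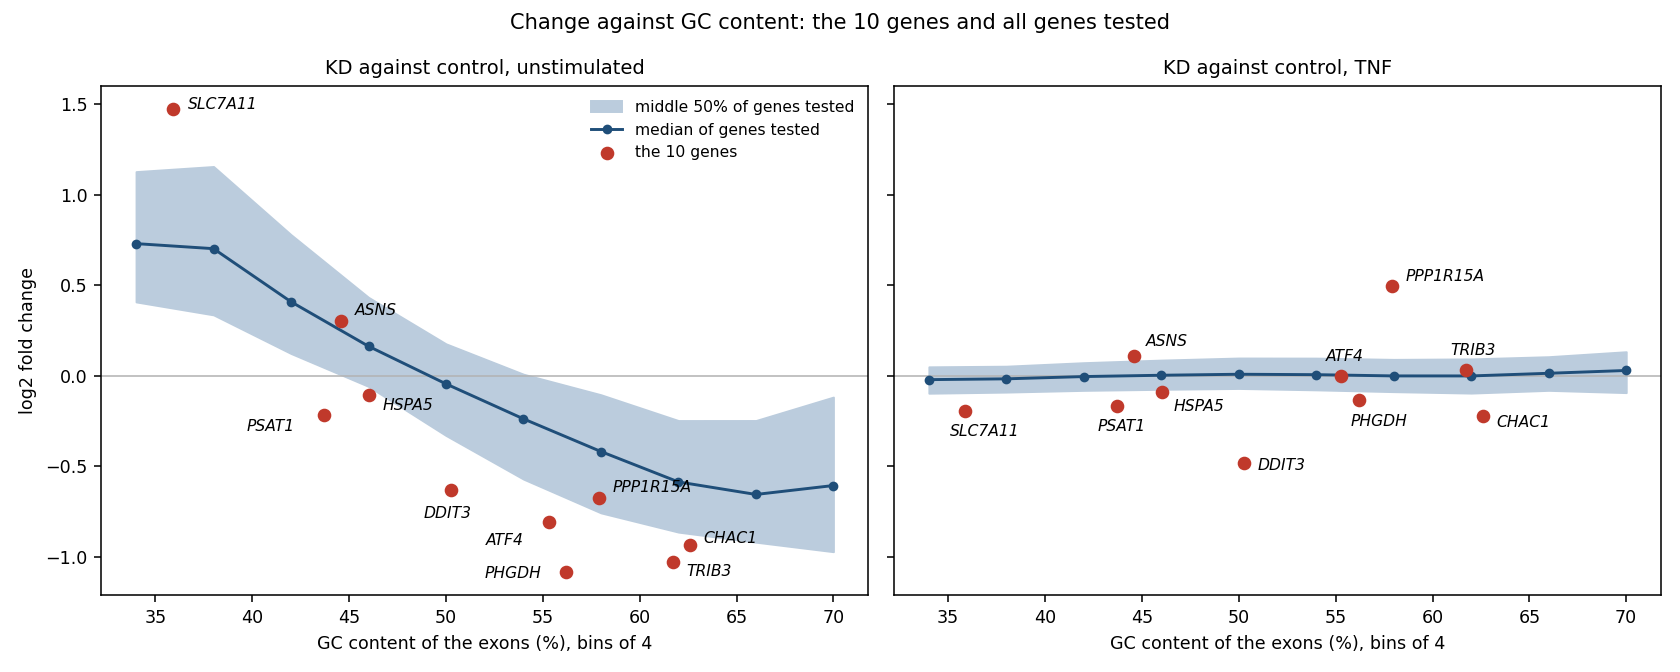
Log2 fold change between KD and control cells (vertical axis) against the GC content of a gene's exons in percent (horizontal axis), without TNF-α at left and with TNF-α at right. The line joins the medians of genes tested in bins of 4 percentage points, the band holds the middle 50% of the genes of a bin, and red points are the 10 genes. At left the medians fall from 0.73 to -0.66 and PHGDH, ATF4, TRIB3, CHAC1, DDIT3 and PSAT1 lie below the band with HSPA5 at its edge and SLC7A11 (1.47) above it, while at right the medians stay near 0 and PPP1R15A (0.49) and DDIT3 (-0.48) lie farthest from them.

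The wider pathway was read from 9 lists with 124 further genes, 120 of which had enough reads. Without TNF-α, 32 of them were higher and 59 lower in KD cells (26.7% and 49.2%), where 29.8% of all genes tested were higher and 30.2% lower, and their median change was -0.27 on the log2 scale. With scaling to total reads 45 were higher and 48 lower (against 39.4% and 20.9% of all genes tested), and after the GC and length correction 17 were higher and 62 lower (against 23.3% and 27.9% of all genes tested). The counts of the single lists, several of which lie near these shares, stand against the same shares of all genes. Of 13 eIF2 genes upstream of ATF4 6 were higher and 4 lower (46.2% and 30.8%). Among the higher ones were the kinase PKR (EIF2AK2, 0.98, SE 0.11, adjusted p = 0.000339) and the constitutive eIF2 phosphatase subunit PPP1R15B (0.85, SE 0.14, adjusted p = 0.00136). The 4 that were lower belonged to eIF2B, the exchange factor that phosphorylated eIF2 blocks, led by EIF2B4 (-0.89, SE 0.11, adjusted p = 0.000423) and EIF2B2 (-0.85, SE 0.14, adjusted p = 0.00116). After the correction 3 of the 13 were higher and 5 lower, with EIF2AK2 at 0.16 (adjusted p = 0.117), PPP1R15B at 0.49, EIF2B4 at -0.66 and EIF2B2 at -0.83. With scaling to total reads 8 were higher and 4 lower, and with upper-quartile factors 5 and 5.

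Among 6 other bZIP factors, 4 were lower (66.7%) without TNF-α, with ATF5 (-1.21, SE 0.08, adjusted p = 0.000119) and CEBPB (-0.92, SE 0.10, adjusted p = 0.000304) in front, and CEBPG was higher (0.28, adjusted p = 0.022). After the correction none was higher and 5 were lower, with ATF5 at -0.58, CEBPB at -0.25 and CEBPG at -0.15 (adjusted p = 0.104), and with scaling to total reads 2 were higher and 3 lower. ATF5, which like ATF4 is controlled by upstream reading frames in its mRNA, was at 33.8 and 30.7 FPKM in control and 13.5 and 13.2 FPKM in KD cells. Of 14 other ATF4 targets 5 were higher and 7 lower (35.7% and 50%), with XPOT, a tRNA exporter, at 1.02 and NUPR1, a stress-induced chromatin protein, at -1.15. After the correction 2 were higher and 3 lower, with XPOT at 0.36 and NUPR1 at -0.999. Of 10 amino acid transporters tested 2 were higher and 5 lower (20% and 50%). The neutral transporters SLC38A2 (1.23) and SLC38A1 (1.18) were the higher ones, and SLC1A5 (-0.94) and SLC3A2 (-0.91), the partner chain of SLC7A11, had the largest falls. After the correction 3 were higher and 3 lower, and these 4 were at 0.49, 0.62, -0.39 and -0.58. SLC3A2 was thus lower in the libraries in which SLC7A11 was higher.

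Of 20 cytosolic aminoacyl-tRNA synthetases, which charge tRNAs with amino acids, 7 were higher and 11 lower (35% and 55%, against 29.8% and 30.2% of all genes tested). EPRS rose by 1.33 (SE 0.10, adjusted p = 0.000136) and TARS by 0.81, while FARSA fell by -1.14 (SE 0.11, adjusted p = 0.000202) and VARS by -0.86. After the correction 3 were higher and 12 lower (15% and 60%, against 23.3% and 27.9% of all genes tested), with EPRS at 0.86, TARS at 0.48, FARSA at -0.501 and VARS at -0.401. Of 15 serine, glycine and folate enzymes tested, 1 was higher (ALDH1L2, 0.76) and 7 were lower (46.7%), led by SHMT2, the mitochondrial enzyme that turns serine into glycine, at -1.01 (SE 0.10, adjusted p = 0.000221) and TYMS at -0.84. After the correction none was higher and 10 were lower, with ALDH1L2 at 0.15 (adjusted p = 0.179), SHMT2 at -0.595 and TYMS at -0.59, and with scaling to total reads 5 were higher and 5 lower. SHMT2 was at 72.0 and 62.0 FPKM in unstimulated control cells, at 35.0 and 30.4 FPKM in unstimulated KD cells and between 77.6 and 82.1 FPKM in the TNF-α libraries, so that, as for PHGDH, only the unstimulated KD libraries were low. Of 13 other amino acid synthesis enzymes 9 were lower (69.2%, and 61.5% or 8 after the correction) and 1 was higher, with the proline enzyme PYCR1 (-1.11) and ASS1 (-1.05), which makes the precursor of arginine, in front (-0.47 and -0.56 after the correction).

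Of 21 ER chaperone and degradation genes tested, 7 were higher and 9 lower (33.3% and 42.9%, against 29.8% and 30.2% of all genes tested), among them the abundant chaperone HSP90B1 at 1.11 (SE 0.08, adjusted p = 0.000124) and its neighbour in the ER lumen SDF2L1 at -1.40 (SE 0.17, adjusted p = 0.000422). HSP90B1 was at 89.9 and 87.1 FPKM in unstimulated control cells and at 189 and 197 FPKM in unstimulated KD cells, while HSPA5 was not called. The split of this list turned on the scaling, with 10 higher and 4 lower when scaled to total reads, 6 and 11 with upper-quartile factors and 3 and 11 after the correction (14.3% and 52.4%, against 23.3% and 27.9%), where HSP90B1 was at 0.704 and SDF2L1 at -0.73. Of 8 glutathione genes 2 were higher (25%), GCLC (0.48) and GCLM (0.30), the subunits of the enzyme for the first step of glutathione synthesis, and 3 were lower (37.5%), with GPX4, which removes lipid peroxides, at -1.57 (SE 0.16, adjusted p = 0.000236). After the correction 2 were higher and 5 lower, with GCLC at 0.0064 (adjusted p = 0.951), GCLM at -0.29 (adjusted p = 0.0156), so that its direction turned, and GPX4 at -0.91. With scaling to total reads 2 were higher and 2 lower, and with upper-quartile factors 1 and 5.

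**Figure D4:**
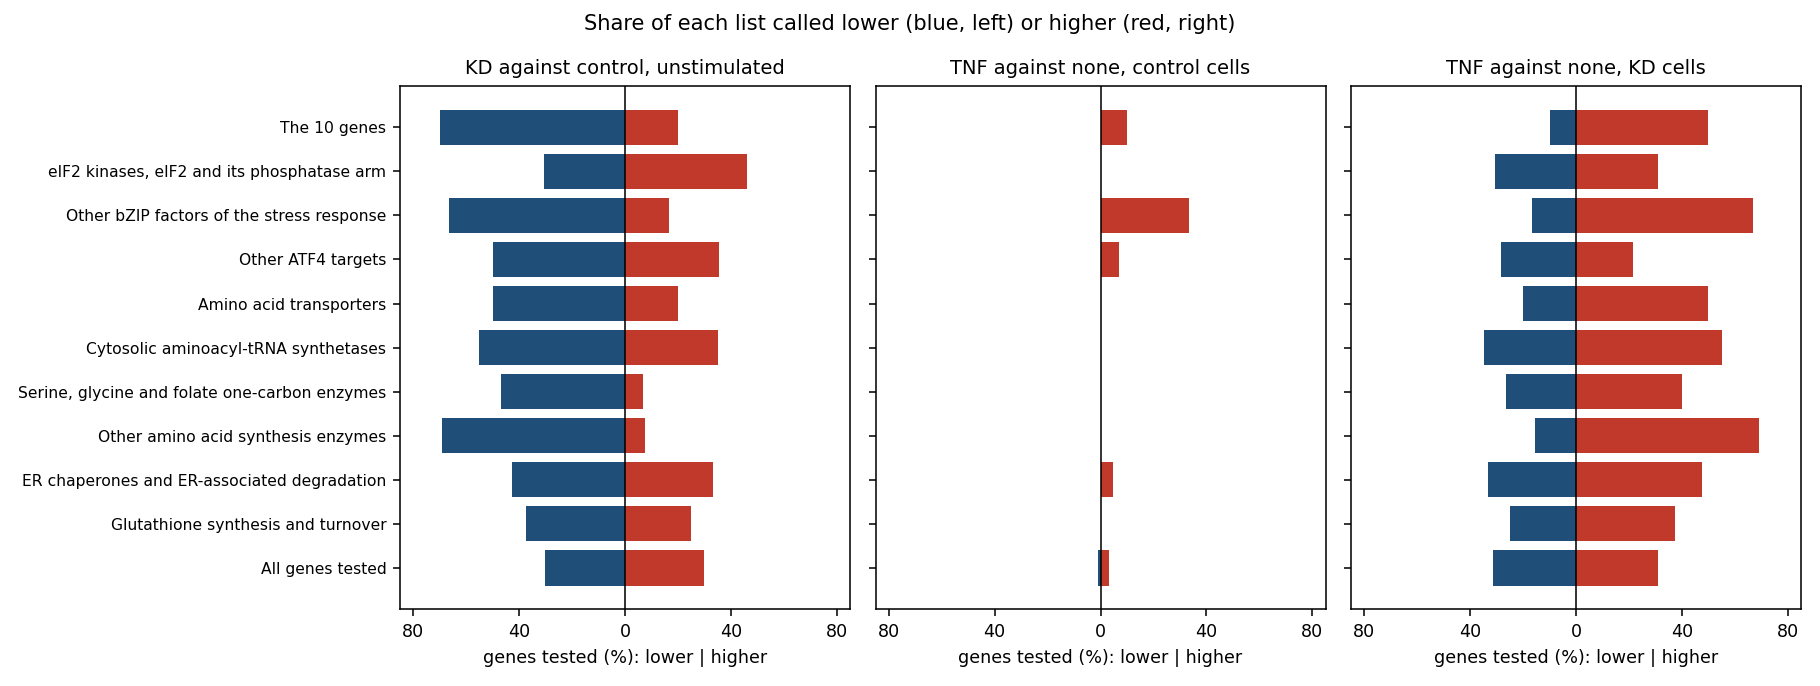
Share of the genes tested, in percent, that were called lower (blue, to the left of 0) or higher (red, to the right) in the 10 genes, the 9 lists of further pathway genes and all genes tested, for 3 comparisons. Before the correction every list has calls in both directions where unstimulated KD cells are compared, as do all genes tested (30.2% lower and 29.8% higher without TNF-α), and 4 genes of the lists were called by TNF-α in control cells.

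TNF-α in control cells raised 4 of the 120 pathway genes (3.33%) and lowered none, where 3.1% of all genes tested were higher and 1.14% lower. They were TRIB1 (1.201, SE 0.11, adjusted p = 0.00101), a relative of TRIB3, the stress factor ATF3 (0.73, SE 0.10, adjusted p = 0.00656), CEBPB (0.49, SE 0.10, adjusted p = 0.045) and the ER stress sensor ERN1 (0.48, SE 0.10, adjusted p = 0.0427). ATF3 was at 3.98 and 3.96 FPKM without and at 7.28 and 7.16 FPKM with TNF-α. Without the unstimulated KD group in the fit 2 of the 120 were called, both higher (1.67%), where 2.099% of all genes tested were higher and 0.581% lower. Between KD and control cells with TNF-α none of the 120 was called by limma, and 8 (6.67%) had an unadjusted p under 0.05, as had 8.16% of all genes tested. Those farthest from 0, named after their values were seen, were FGF21 (-0.73, adjusted p = 0.203), TRIB1 (0.68, adjusted p = 0.117) and DDIT4 (-0.64, adjusted p = 0.0824). In KD cells TNF-α was followed by 55 higher and 33 lower genes (45.8% and 27.5%, against 31.1% and 31.4% of all genes tested), by 38 higher and 47 lower with scaling to total reads, and by 57 higher and 20 lower after the correction (47.5% and 16.7%, against 28.9% and 27.3% of all genes tested). ATF5 (1.14), CEBPB (1.44), TRIB1 (1.52), SHMT2 (1.26) and PYCR1 (1.297) were among the higher ones, and HSP90B1 (-1.28) and SLC38A2 (-1.46) among the lower. After the correction these 7 genes were at 0.48, 0.73, 1.28, 0.78, 0.62, -0.86 and -0.74, and all were still called. Other genes of the lists lost their call, such as SESN2 (0.63 to 0.03), CEBPG (-0.40 to 0.05) and XPOT (-0.85 to -0.23). CHAC2 turned from -0.35 to 0.35 (adjusted p = 0.0278 after the correction).

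For 4 members the genes with the most similar profile were sought among 6600 or 6601 genes with a mean of at least 5 FPKM, by Pearson's r of log2(FPKM + 1) over the 8 libraries. ATF4 was closest to PPP2R1A, RPL15 and EMD (r between 0.998 and 0.999), and 2768 genes had an r above 0.9 with it. PHGDH was closest to AP2M1, CDC45 and BIN1 (r between 0.998 and 0.999), and 2396 genes had an r above 0.9. The profiles of these 2 genes, low in the unstimulated KD libraries and level elsewhere, were thus shared by many of the genes compared. DDIT3 (RRM2, HOXA11 and CCT2, r between 0.935 and 0.978) had 21 such genes and ASNS (RNF139, PABPC1 and FOPNL, r between 0.970 and 0.981) had 128. The points share library, depth and base composition, and the values are descriptions.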

How the data were processed

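RNA-seq of the 8 U2OS libraries was sequenced as 150-cycle reads by the methods, and the submitters' processing notes name CASAVA 1.8, fastp, HISAT2 2.0.5, featureCounts 1.5.0-p3, DESeq2 1.20.0 and GRCh38. The authors deposited FPKM values per gene and library, scaled by median-of-ratios library factors, for 58735 genes whose positions and exon lengths match GENCODE 29. Whole reads were recovered for 100% of values (within 0.05 read) and gave depth and filters. Genes with at least 10 reads at median depth in 2 libraries and 15 in all (16528) were tested on log2(FPKM + 1) with limma 3.58.1 (R 4.3.3), group means over 8 libraries (4 residual degrees of freedom), and Benjamini-Hochberg adjustment. The study's methods name a count test, for which no deposited counts were used here. The correction subtracts, per library, splines of GC content and of log2 exon length, each with 5 degrees of freedom, fitted across genes. Members, lists and motifs were chosen with earlier results of these data known. Named list genes were the 2 largest rises and 2 largest falls among calls without overlap, of which 1 gene is not reported here. The alternatives were another pseudocount (0.1), 2 filters, 2 scalings, voom, the correction, a replicate block, fewer libraries and leaving out each library. Fits were also run on simulated data with 200 genes changed 2-fold, whose outcome is not given here and is not used as support. Floors of counting were not needed, since every member had reads in each library. Python 3.11.15 and matplotlib 3.10.9 drew the figures.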

Additional observations from a re-analysis of the deposited data

Results flagged for a closer look

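For 6 of the 10 genes the effect of the knockdown differed between unstimulated and TNF-α-stimulated cells by the interaction test of limma (difference of log2 fold changes, with TNF-α minus without), where 23.8% of all genes tested were called higher and 22.3% lower. The difference was 1.17 for PPP1R15A (adjusted p = 0.00135), 1.06 for TRIB3 (adjusted p = 0.00148), 0.95 for PHGDH (adjusted p = 0.00289), 0.81 for ATF4 (adjusted p = 0.0040) and 0.72 for CHAC1 (adjusted p = 0.00336). It was -1.67 for SLC7A11 (adjusted p = 0.00157). All 6 use the unstimulated KD libraries, which stand apart in base composition and mitochondrial reads. For PPP1R15A the difference between KD and control cells was -0.67 without and 0.49 with TNF-α, and after the correction it was -0.15 and 0.495. After the correction for GC content and length the values were 0.64 for PPP1R15A, 0.45 for TRIB3, 0.76 for PHGDH, 0.37 for ATF4 and -0.70 for SLC7A11, all with an adjusted p under 0.05, and 0.07 for CHAC1 (adjusted p = 0.594).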

How the results depend on the processing

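The total number of members called, higher and lower together, stayed within 1.5 times the reported total except for 1 member called between KD and control cells with TNF-α after the GC and length correction (PPP1R15A), 10 called for TNF-α in KD cells with scaling to total reads, and a range of 1 to 2 for TNF-α in control cells when each library was left out in turn. By direction, the 2 members called higher without TNF-α became 1, without ASNS, with the correction (alone or with the block), upper-quartile factors, no filter, a mean of at least 1 FPKM (where ASNS was not tested), only the libraries compared, and without control_unstimulated replicate 1 or KD_unstimulated replicate 2. The 1 called lower for TNF-α in KD cells became 2 with the correction (alone or with the block), only the libraries compared and without KD_unstimulated replicate 1, 3 without control_unstimulated replicate 1 or 2, and 5 with scaling to total reads. TNF-α in control cells called 7 pathway genes with the correction (5.83%, all higher, where 3.77% of all genes tested were higher and 1.86% lower) and 2 without the unstimulated KD group (1.67%, where 2.099% were higher and 0.581% lower), an alternative chosen after seeing the data. WSB2 with TNF-α ranged from -1.39 to -1.36 when each library was left out, and lost its call without KD_TNF replicate 2 (adjusted p = 0.0519), which leaves 1 library assumed to vary like the other groups.

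Signs turned mostly for values near 0. With scaling to total reads, without TNF-α PSAT1 was at 0.0538 and HSPA5 at 0.18, TNF-α in control cells gave -0.00853 for ATF4 and -0.0228 for ASNS, TNF-α in KD cells gave -0.28 for HSPA5 (adjusted p = 0.0195), and the interaction gave -0.10 for DDIT3, -0.24 for PSAT1 and -0.29 for HSPA5. With upper-quartile factors ATF4 was at 0.00056 between KD and control cells with TNF-α, ASNS at -0.0101 for TNF-α in control cells and PSAT1 at 0.0657 for TNF-α in KD cells. With voom ASNS was at -0.0283 for TNF-α in control cells and HSPA5 at -0.0227 in the interaction. With the correction, alone or with the replicate block, ASNS was at 0.0334 and PSAT1 at 0.12 for TNF-α in KD cells, and DDIT3 at -0.0726 and ASNS at 0.0158 in the interaction. When each library was left out, the values that turned ranged, between KD and control cells with TNF-α, from -0.0284 to 0.0245 (ATF4) and -0.0489 to 0.11 (TRIB3), for TNF-α in control cells from -0.0557 to 0.0585 (ASNS), -0.11 to 0.0686 (CHAC1), -0.24 to 0.0615 (PHGDH) and -0.0456 to 0.18 (ATF4), and in the interaction from -0.14 to 0.45 (DDIT3) and -0.0097 to 0.0437 (HSPA5).

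Nothing in the labels says that the replicate numbers pair the libraries. The deviations of equally numbered libraries correlated between -0.19 and 0.35, highest between unstimulated control and unstimulated KD cells. Whether equally numbered libraries shared a batch cannot be told from these correlations. The replicate block gave 9 members called without TNF-α, 0 between KD and control cells with TNF-α, 1 for TNF-α in control cells, 6 for TNF-α in KD cells and 6 in the interaction, the same counts as without it. The cause of the changes named above was not tested. Depth limits ASNS (349 reads) and DDIT3 (1089 reads) most, and the variance between the 2 libraries of a group was 30.1 times the sampling noise in unstimulated control cells and 2.45 times in KD cells with TNF-α.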
